A study of Saccharomyces cerevisiae with 12 samples.

Results

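Loss of Sae2 was examined in budding yeast exposed to the topoisomerase poison VP16, by comparing CC-seq maps of the strain labelled pdr1sae2 with those of the strain labelled pdr1. The members are all libraries whose labels name these strains and VP16, 2 of pdr1sae2 and 2 of pdr1, or 4 of the 12 libraries of the series. All strains are of the BY4741 background and hold a cassette that sensitises them to drugs, pdr1DBD-CYC8, by lowering export. The control strain therefore carries it too, and pdr1sae2 differs from it by loss of SAE2, which the study describes as a deletion. Cells in YPD were incubated for 4 h at 30 °C with 1 mM VP16, while the cultures labelled UT received DMSO. The 2 libraries of a group are labelled as biological replicates, and the sources used here do not state how many clones of a strain were grown, or the extent or marker of the SAE2 deletion in these strains. The 4 untreated libraries of the same strains served as the background, and 2 libraries of pdr1mre11 with VP16 served to choose reference sites and to share the estimate of spread.

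Topoisomerase 2 (Top2) relaxes and untangles DNA by cutting both strands of a duplex, passing another duplex through the gap and resealing the cut. Each active site of the dimer is bound for a moment to a 5′ end through a tyrosine, and VP16 (etoposide) hinders resealing, so that these covalent complexes accumulate. Sae2, the yeast counterpart of human CtIP, stimulates the nuclease of the Mre11-Rad50-Xrs2 complex, which clips the strand beside a protein-blocked end. In meiosis this activity releases Spo11 from the breaks it makes. CC-seq enriches DNA that carries covalently attached protein and maps the outermost 5′ nucleotide of every attached end, called a hit here. The overhang left by Top2 puts hits of the Watson and Crick strands 3 bp apart, and such a pair of positions is called a site. The axis of symmetry between the 2 cuts is the dyad. Position −3 is the base just before the cleaved bond of the Watson strand, and position +3 is its counterpart for the Crick strand.

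In replicates 1 and 2, pdr1 with VP16 gave 2182234 and 1615079 nuclear hits, and pdr1sae2 with VP16 gave 1073764 and 2371823. The lowest density was thus 93.1 hits per kb, in pdr1sae2 replicate 1, and the highest 206, in pdr1sae2 replicate 2. Library measures were computed after thinning to 1073764 nuclear hits where not stated otherwise. The replicate 2 libraries of untreated pdr1 and pdr1sae2 were shallower, with 685100 and 965863 nuclear hits, and were used whole. Mitochondrial hits made up 0.549% and 3.04% of all hits in pdr1, and 0.543% and 1.49% in pdr1sae2. With 2 libraries a side, an exact two-sided permutation test cannot go below p = 0.333, so differences of library measures are descriptions. By the same count, 4 libraries arranged without regard to strain give groups that do not overlap in a share of 0.333.

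One difference between replicate numbers stood apart from the groups. URA3 (chromosome V, 116167 to 116970), a pyrimidine synthesis gene widely used as a marker and deleted in BY4741, held 0 hits in both replicate 1 libraries with VP16. It held 140 hits in pdr1 replicate 2 and 74 in pdr1sae2 replicate 2, which is 124% and 44.8% of the mean density of those libraries. The untreated libraries of pdr1 and pdr1sae2 gave 1 and 1 hits in replicate 1 and 27 and 61 in replicate 2. In pdr1mre11 with VP16, URA3 held 0 hits in replicate 1 and 31 in replicate 2. Of the URA3 hits, 20.7% (95% Wilson interval 14.8 to 28.2) in pdr1 replicate 2 and 28.4% (19.4 to 39.5) in pdr1sae2 replicate 2 followed a cytosine. Over all hits of these libraries the shares were 51.4% and 60.0%. At URA3 in untreated replicate 2 they were 22.2% in pdr1 and 23.0% in pdr1sae2. MET17, a methionine synthesis gene also deleted in BY4741, held no hit in any of the 4 VP16 libraries. Maps of replicate 1 and of replicate 2 thus differ at URA3 in both compared strains and in pdr1mre11, and the part of this difference in the results below was not tested.

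The sites that took most hits under VP16 are shown first, because the comparison of strains at single sites rests on them. They are the 8 sites with the highest share of nuclear hits, averaged over the 4 libraries, among those whose surrounding 40 bp occurs once in the R64 reference, off chromosome III. The 28 bases of the Watson strand are given 5′ to 3′ from R64, with position −3 and position +3 in capitals. A capital C at −3 is a cytosine before the Watson bond, and a capital G at +3 is a cytosine before the Crick bond.
Between RIC1 and AFB1, chrXII:228592-228619: aacatcaaaggCgtcgGtattgccgaat
Between YNL050C and SFB2, chrXIV:535089-535116: ttcgtactgatCcgatGacttgaaaata
Between HOS3 and BEM3, chrXVI:331841-331868: agctcttcgacCatttGgtcaagaagtt
Between HEM25 and CYK3, chrIV:248120-248147: aaattctcgaaTggctGgtttggtggcc
Between RPC31 and PGA2, chrXIV:348645-348672: catttttcatgCggccGcacaagagttg
In SPC29, chrXVI:317336-317363: gaccaacaagaCgtatGgcttacaaatg
Between ASP1 and MRPL35, chrIV:1110478-1110505: aaaccggaagcCggaaGgtctgggataa
Between ATG17 and SPP382, chrXII:973263-973290: aatttttaataCtgagGccttagagcgc

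In 7 of these 8 sites cytosine preceded the bond on both strands. The exception was the site between HEM25, a mitochondrial glycine carrier gene, and CYK3, a cytokinesis gene, with thymine at −3. The 8 sites lay in 4 tandem, 2 divergent and 1 convergent intergenic regions and in the reading frame of SPC29, which encodes a spindle pole body component.

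The strongest site lay between RIC1, a Golgi trafficking gene, and AFB1. It held 424 and 264 hits in pdr1 and 173 and 365 in pdr1sae2 with VP16, or 194 and 163 hits per 1000000 nuclear hits (HpM) in pdr1 and 161 and 154 in pdr1sae2. The untreated libraries of these strains held 1 to 8 hits there. After thinning it was the largest site of the 4 compared libraries, with 207 and 182 hits in pdr1 and 173 and 161 in pdr1sae2. The pdr1 libraries were the higher ones at this site without overlap, but the fitted log2 difference of pdr1sae2 from pdr1, with normalisation factors, was 0.08 (SE 0.27).

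At the site between YNL050C and SFB2, a vesicle coat gene, the libraries held 139 and 123 HpM in pdr1 and 81.0 and 126 in pdr1sae2. The site in SPC29 gave 129 and 96.0 HpM in pdr1 and 88.5 and 116 in pdr1sae2. Between HEM25 and CYK3 the values were 161 and 94.7 in pdr1 and 98.7 and 89.8 in pdr1sae2. In all 3 of these sites the groups overlapped. Over the 8 sites the fitted log2 difference of pdr1sae2 from pdr1 ran from −0.15 (SE 0.31) between ATG17 and SPP382 to 0.10 (SE 0.26) in SPC29, and no site passed the test. Without normalisation factors, the log2 ratio of mean HpM was negative at all 8, from −0.44 between HEM25 and CYK3 to −0.14 in SPC29.

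All sites were then tested for a difference in hits by edgeR's quasi-likelihood test over the 6 VP16 libraries. Its normalisation factors centre the differences over sites near 0, so a change common to most sites would not show. Of 35268 sites, 0 were called at a Benjamini-Hochberg adjusted p under 0.05 (0%), and 488 had an unadjusted p under 0.05. DESeq2 called 0 as well, with 89 at an unadjusted p under 0.05. A fit by edgeR with total nuclear hits as library size and no such factors called 0, with 482 at an unadjusted p under 0.05. The median fitted log2 difference over sites was −0.02, near 0 by that normalisation. The 5th and 95th percentiles were −1.03 and 1.03, and the median SE was 0.68. Differences smaller than this error could not be detected at a typical site, and far larger ones could be missed too. The site at 173732 in SAE2, described below, had −3.82 (SE 0.91) in this fit and was not called. With the replicate number as a block, edgeR also called 0 sites, with 1000 at an unadjusted p under 0.05.

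The targeted gene served as the check of the labels. SAE2 lies on the minus strand of chromosome VII (173285 to 174322), between YGL176C and BUD13. The longest run of windows of 25 bp with few hits in the 2 pdr1sae2 libraries with VP16 spanned 525 bp of the reading frame (chrVII:173710-174234). Its bounds were chosen on these hits, so the VP16 counts describe the choice. The interval held 98 and 94 hits in pdr1 and 3 and 4 in pdr1sae2. In the untreated libraries, which did not set the bounds, it held 118 and 22 hits in pdr1 and 1 and 1 in pdr1sae2. Hits in this interval were thus at 6.14% and 3.71% of the library mean in pdr1sae2 with VP16, against 98.7% and 128% in pdr1. The SAE2 frame outside the interval did hold hits in pdr1sae2.

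On the stop codon side of the interval (173285 to 173709) the frame held 54 and 57 hits in pdr1 and 81 and 149 in pdr1sae2 with VP16. Relative to the library mean this was 67.2% and 95.8% in pdr1 and 205% and 171% in pdr1sae2. Without the drug the order of the strains was the opposite, at 122% and 123% in pdr1 and 59.9% and 73.1% in pdr1sae2. The whole frame consequently held 163 and 158 hits in pdr1 and 90 and 162 in pdr1sae2, and its fitted log2 difference was −0.18 (SE 0.23, adjusted p = 0.999 by edgeR).

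The neighbours of SAE2 were examined next. The reading frame of BUD13, a gene of pre-mRNA retention and splicing, held 106% and 128% of the mean density in pdr1 and 205% and 172% in pdr1sae2 with VP16, and 119% and 84.1% in pdr1 and 113% and 91.0% in pdr1sae2 without it. Its fitted log2 difference under VP16 was 0.69 (SE 0.21), with an unadjusted p of 0.00209 and an adjusted p of 0.999 by edgeR. In the 205 bp between YGL176C and SAE2, the density was 542% and 422% in pdr1 and 299% and 311% in pdr1sae2. The fitted log2 difference for the window upstream of YGL176C was −0.66 (SE 0.24, adjusted p = 0.999 by edgeR). Neither neighbour passed the test, although the VP16 libraries of the strains did not overlap in BUD13 or in that intergenic region.

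**Figure D1:**
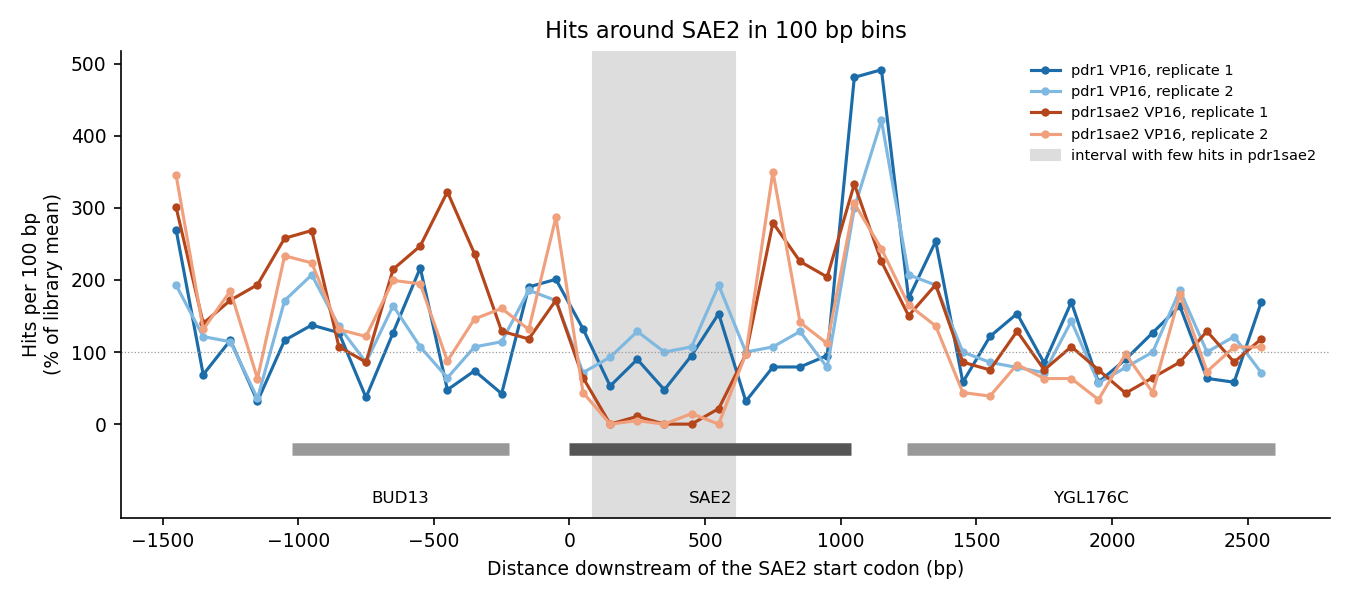
Hits in bins of 100 bp around SAE2, as percent of the mean density of each library, against the distance downstream of the SAE2 start codon in bp. Lines are the 4 VP16 libraries, bars below are reading frames, and the shaded 525 bp interval held 98 and 94 hits in pdr1 and 3 and 4 in pdr1sae2.

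Single sites in and beside SAE2 are shown because the first and second were called in the fit described next. All 3 were named after their values were seen. Capitals again mark positions −3 and +3.
In the SAE2 frame on the stop codon side, chrVII:173603-173630: gtgtttagaatCctctGgctttccaact
In the SAE2 interval with few hits, chrVII:173720-173747: ctttgttaaagGgttcGtattgaagtca
Between YGL176C and SAE2, chrVII:173191-173218: tttttcccataTgccaAcgaggaaaaaa

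At the first of these (Watson position 173615), pdr1 held 3 Watson and 3 Crick hits in replicate 1 and 5 and 3 in replicate 2. In pdr1sae2 it held 0 Watson and 12 Crick hits in replicate 1 and 0 and 51 in replicate 2. The stop codon side as a whole, this site included, held 24 Watson and 57 Crick hits, and 16 and 133, in pdr1sae2. In pdr1 it held 21 and 33, and 25 and 32, and in untreated pdr1sae2 13 and 44, and 10 and 16. The start codon side (174235 to 174322) held 6 Watson and 0 Crick hits, and 8 and 1, in pdr1sae2 with VP16. The part of the altered locus in these strand counts was not tested. The site at 173732, inside the interval, held 27 and 14 hits in pdr1 and 2 and 0 in pdr1sae2. In the fit over 6 libraries neither was called. The fit of the 4 libraries with the replicate number as a block, chosen after seeing the data, called both, the first at a log2 difference of 2.23 (SE 0.44) and the second at −3.77 (SE 0.75), each with an adjusted p of 0.00411 by edgeR. These were the 2 calls among 17517 sites in that fit (0.0114%). The site at 173203 held 23 and 13 hits, all on the Watson strand, in pdr1, and 0 and 5 in pdr1sae2, and was not called in any fit.

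Broader differences were sought in tiles of 500 bp. Of 23254 tiles, 1 was called (0.0043%), and 405 had an unadjusted p under 0.05. DESeq2 called 0, with 100 at an unadjusted p under 0.05. Tiles chrVII:173501-174000 and chrVII:174001-174500, which overlap the SAE2 interval, were not called by edgeR. Their log2 differences were −0.17 (SE 0.25) and −0.75 (SE 0.25). The called tile (chrX:502501-503000) lies in HUL4, which encodes a ubiquitin ligase. It held 37 and 56 hits in pdr1 and 263 and 84 in pdr1sae2, or 16.96 and 34.7 HpM in pdr1 and 245 and 35.4 in pdr1sae2. A single library, pdr1sae2 replicate 1, was high, and pdr1sae2 replicate 2 lay beside pdr1 replicate 2.

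The fitted log2 difference of the HUL4 tile was 2.38 (SE 0.25, adjusted p = 1.18e-16 by edgeR), and 0.46 (SE 0.40, adjusted p = 1.00) without pdr1sae2 replicate 1. The tile count fell to 0 without that library, without pdr1 replicate 1 or without pdr1 replicate 2, and was 15 without pdr1sae2 replicate 2. Without pdr1 replicate 1 the tile still had a log2 difference of 1.96 (SE 0.59, adjusted p = 1.00 by edgeR), and without pdr1 replicate 2 one of 2.89 (SE 0.65, adjusted p = 0.750). The 1 of these 15 that was lower in pdr1sae2 lay in URA3 and held 0 and 90 hits in pdr1 and 0 in the remaining pdr1sae2 library. The excess lay on the Crick strand within 380 bp (chrX:502701-503080), where pdr1sae2 replicate 1 held 305 Crick hits at 300 different positions and 8 Watson hits. That stretch was marked out around the excess, so its values describe that choice. Its density was 885% of the library mean in pdr1sae2 replicate 1, against 89.6% in pdr1sae2 replicate 2 and 33.4% and 62.0% in pdr1. The excess was spread over positions rather than stacked on a site.

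With the replicate number as a block, 2 of 23254 tiles were called (0.0086%). The HUL4 tile had a log2 difference of 2.13 in that fit. The other (chrX:285501-286000) lies in SCP160, which encodes an RNA-binding protein of polysomes. It held 35 and 52 hits in pdr1 and 81 and 88 in pdr1sae2, with a log2 difference of 1.15 (SE 0.25, adjusted p = 0.0379 by edgeR), against an adjusted p of 0.209 without the block. In pdr1sae2 replicate 1 this was 75.4 HpM, while the other 3 libraries held 16.04 to 37.1, so the strains did not overlap but 1 library carried most of the difference.

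In tiles of 200 bp, 6 of 57707 were called by edgeR (0.0104%). Of these, 2 were lower in pdr1sae2 and lay in the SAE2 interval. The tile at chrVII:173801-174000 held 24 and 30 hits in pdr1 and 0 and 3 in pdr1sae2, with a fitted log2 difference of −4.02, and the tile at chrVII:174001-174200 held 28 and 24 against 1 and 1, with −4.47 (adjusted p = 9.16e-06 for each). The 4 called higher comprised 3 adjoining tiles in HUL4 and 1 in AIM34 on chromosome XIII, which held 15 and 15 hits in pdr1 and 58 and 24 in pdr1sae2. As in HUL4, pdr1sae2 replicate 1 was the high library in AIM34. In a fit of all 12 libraries, the VP16 effect on 500 bp tiles differed between pdr1sae2 and pdr1 in 0 of 23267 tiles by edgeR, with 259 at an unadjusted p under 0.05.

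Genes that act at DNA ends or change DNA topology were examined as a list of 19. It held the MRX complex with SAE2 and the kinase gene TEL1, the resection genes EXO1, SGS1 and DNA2, the topoisomerase genes TOP1, TOP2 and TOP3 with RMI1, and the protein adduct repair genes TDP1 and WSS1. The end-joining genes YKU70, YKU80 and DNL4, the checkpoint gene RAD9 and the recombination gene RAD52 completed it. Of 11396 reading frames and 200 bp upstream windows tested, 0 were called by edgeR (0%), with 332 at an unadjusted p under 0.05. None of the 19 frames and 19 upstream windows of the list was called or reached an unadjusted p under 0.05. The median log2 difference was 0.05 over the 19 frames, where all 5699 frames had 0.08, and −0.18 over the 19 upstream windows, where all 5697 had −0.14.

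Within the list, TOP2 itself held 580 and 500 hits in its frame in pdr1 and 335 and 813 in pdr1sae2, a fitted log2 difference of 0.20 (SE 0.18). The lowest frame was TOP3, the gene of a type I topoisomerase, at −0.40 (SE 0.24), and the highest was EXO1, the gene of a resection nuclease, at 0.28 (SE 0.19). Upstream of TDP1, the gene of a phosphodiesterase that removes topoisomerase remnants, the windows held 122 and 71 hits in pdr1 and 28 and 94 in pdr1sae2, at −0.55 (SE 0.28). PDR1, the locus altered in both strains, held 445 and 299 hits in pdr1 and 204 and 463 in pdr1sae2, with a log2 difference of −0.00 (SE 0.19).

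The place of hits relative to genes was compared between VP16 libraries thinned to equal depth. Density in the promoter-bearing intergenic regions, divergent and tandem, exceeded that in reading frames by 1.17 and 0.80 (log2) in pdr1 with VP16 and by 0.77 and 0.83 in pdr1sae2. Untreated libraries gave 0.13 to 0.22. The means were 0.98 ± 0.26 and 0.80 ± 0.05 (SD, n = 2 each), the groups overlapped, and the exact permutation p was 0.667. The difference of pdr1sae2 from pdr1 was −0.40 in replicate 1 and 0.04 in replicate 2.

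Reading frames took 56.3% and 62.2% of the annotated hits in pdr1 and 62.6% and 61.7% in pdr1sae2. Divergent regions took 14.9% and 12.7% in pdr1 and 12.6% and 12.9% in pdr1sae2, and tandem regions 23.7% and 20.2% in pdr1 and 19.8% and 20.5% in pdr1sae2. The convergent share lay between 4.89% and 5.10% in all 4 libraries. In each of these classes pdr1 replicate 1 stood at one end and the other 3 libraries lay closer together.

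Upstream of start codons, density over the last 200 bp exceeded that over the initial 1000 bp of the frames by 1.51 and 1.09 (log2) in pdr1 and by 0.97 and 1.16 in pdr1sae2 (exact permutation p = 0.667, groups overlapping). Over all hits, unthinned, the profile of 3510 reading frames of at least 1000 bp had its maximum between 125 and 100 bp before the start codon in all 4 VP16 libraries. This maximum was 2.89 and 2.30 times the library mean in pdr1 and 2.03 and 2.38 times in pdr1sae2, and at most 1.20 times in the untreated libraries. The pdr1 replicate 2 and pdr1sae2 replicate 2 profiles ran close together, whereas the replicate 1 profiles of the strains were the highest and the lowest at the maximum.

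**Figure D2:**
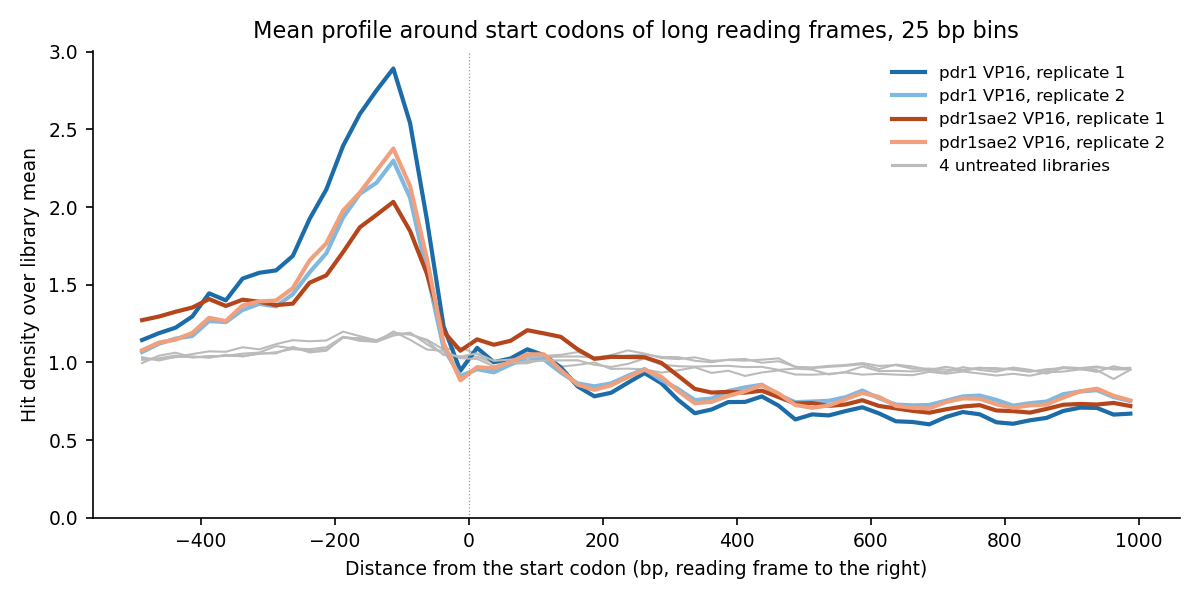
Mean hit density in bins of 25 bp around the start codons of long reading frames, over the library mean, against the distance from the start codon in bp. Coloured lines are the 4 VP16 libraries, which peak at 2.89 and 2.30 in pdr1 and at 2.03 and 2.38 in pdr1sae2, and grey lines are the 4 untreated libraries.

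The base before the cleaved bond was cytosine for 65.6% (95% Wilson interval 65.5 to 65.7) and 51.4% (51.3 to 51.5) of hits in pdr1 with VP16. In pdr1sae2 it was cytosine for 46.4% (46.3 to 46.5) and 60.0% (59.9 to 60.1). Untreated libraries of both strains gave 21.9% to 23.0%, and cytosine is 19.1% of the genome analysed. The counting intervals are far narrower than the distance between replicates of a strain. The group means were 58.5% ± 10.0 in pdr1 and 53.2% ± 9.61 in pdr1sae2 (SD, n = 2 each, exact permutation p = 0.667). In replicate 1 pdr1sae2 was lower than pdr1 by 19.2 percentage points (difference −19.2), and in replicate 2 it was higher by 8.55.

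Hits were also summed over 1000 reference sites, the strongest sites of the 2 pdr1mre11 libraries with VP16, so that the compared libraries did not choose them. These sites held 3.88% and 2.51% of hits in pdr1, 2.14% and 3.01% in pdr1sae2, and 0.105% to 0.211% in the untreated libraries. The exact permutation p was 0.667. For cytosine share, promoter density, upstream density and site concentration, the 4 libraries stood in the same order, with pdr1 replicate 1 highest, then pdr1sae2 replicate 2, pdr1 replicate 2 and pdr1sae2 replicate 1. The order by depth before thinning differed from it only in that pdr1sae2 replicate 2 came before pdr1 replicate 1, and the part of depth in these measures was not tested beyond the thinning. These 4 measures share their hits and are not independent of each other.

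**Figure D3:**
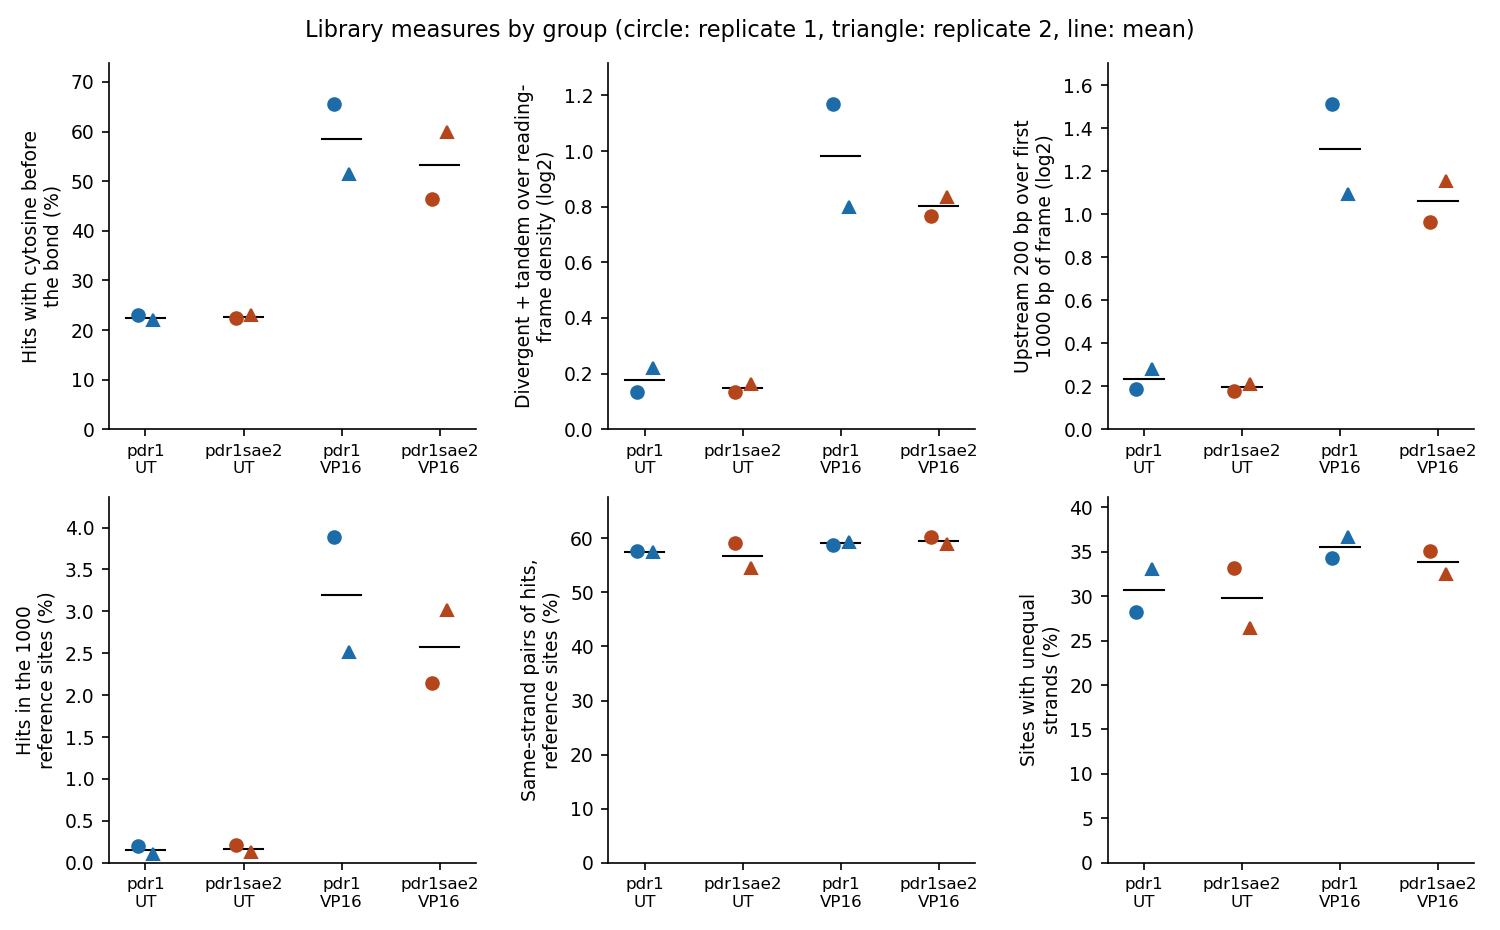
The 6 measures of each library by group, with units on the axes, circles for replicate 1, triangles for replicate 2 and lines for means of 2 libraries. With VP16 the pdr1 and pdr1sae2 libraries overlap in every panel, for example at 65.6% and 51.4% against 46.4% and 60.0% for cytosine before the bond.

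Strand balance was measured as the share of pairs of hits at a reference site that lie on the same strand, which is 50% for equal strands. It was 58.8% and 59.3% in pdr1 and 60.2% and 58.9% in pdr1sae2, with 54.5% to 59.1% in the untreated libraries. Only sites with at least 2 hits in a library count. The VP16 values thus rest on 998 to 1000 sites and the untreated ones on 120 to 331. Sites of at least 8 hits with unequal strands (two-sided exact binomial p at or under 0.05) made up 34.3% of 14248 in pdr1 replicate 1 (95% Wilson interval 33.5 to 35.1) and 36.6% of 7180 in pdr1 replicate 2 (35.5 to 37.8). For pdr1sae2 it was 35.1% of 4727 (33.7 to 36.4) and 32.5% of 10760 (31.6 to 33.4). In each of these 2 measures the groups overlapped and the exact permutation p was 0.667. Without thinning, the shares of sites with unequal strands were 38.8% and 38.0% in pdr1 and 35.1% and 36.5% in pdr1sae2, lower in pdr1sae2 in both replicates and without overlap (exact permutation p = 0.333, the smallest possible), at depths that differ between the libraries. Over the reference sites alone, thinned, they were 44.4% and 38.7% in pdr1 and 37.6% and 41.1% in pdr1sae2, so the sign in each replicate was the opposite of that over all sites. The 6 tests of library measures, adjusted together, all gave 0.667, and in all 6, as thinned, the difference between strains had opposite signs in replicate 1 and replicate 2.

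Balance was then examined by the base before each bond. Of 983 reference sites with known bases, 589 (59.9%) had cytosine before the bond on both strands, 374 (38.0%) on 1 strand and 20 on neither. At sites with cytosine on both strands the same-strand share was 55.9% and 56.0% in pdr1 and 56.6% and 55.9% in pdr1sae2. At sites with cytosine on 1 strand it was 63.6% and 64.7% in pdr1 and 65.8% and 63.5% in pdr1sae2. At the 20 sites with cytosine on neither strand it was 61.3% and 62.0% in pdr1 and 65.5% and 67.0% in pdr1sae2, without overlap, while the untreated libraries ran from 46.4% to 72.9%. Over the 323 sites of this class among 10000 reference sites the strains overlapped, at 62.5% and 64.4% in pdr1 and 61.6% and 65.2% in pdr1sae2. In the sites with cytosine on 1 strand, 70.8% and 73.4% of hits in pdr1 and 74.1% and 70.7% in pdr1sae2 lay on the strand with the cytosine, against 50.3% to 57.7% in the untreated libraries. Hits thus lay more often on the strand with cytosine in every VP16 library than in any untreated one, and the strains overlapped.

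A test of the strand ratio at each site gave 0 calls among 2444 sites (0%) by edgeR, with 15 at an unadjusted p under 0.05. This fit held no term for a strand ratio shared by libraries of the same replicate number. The count was also 0 among 503 sites with at least 20 hits in each library and among 9668 sites with at least 5. The sites with the most one-sided and the most even strands in pdr1mre11 show the range, among the 47 reference sites with at least 50 hits in every compared library. Capitals mark positions −3 and +3.
One-sided, between GPI18 and RCR1, chrII:245719-245746: cttttttcgatGatgaGgcttacttttt
One-sided, between YLR162W and RRT15, chrXII:490378-490405: gactaaaggatCgataGgccacactttc
One-sided, between YLR162W and RRT15, chrXII:489963-489990: ttattcgtatcCatctAtattgtgtgga
One-sided, between YLR162W and RRT15, chrXII:490070-490097: caatgcctgatCagacAgccgcaaaaac
Even, between NUC1 and LAA1, chrX:41364-41391: ccgtgcatatgCatccGacttgcaatta
Even, between BET4 and MAD2, chrX:387530-387557: tcaaatgtttaCgtatGgtttatgattt
Even, between SRO77 and PKC1, chrII:14012-14039: gcattgttgaaCatacGgcttcgcatcg

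The fourth even site was that in SPC29, printed above. All 4 even sites have cytosine before both bonds. Of the one-sided sites, the 3 between YLR162W and RRT15 lie beside the rDNA and their 40 bp occurs 3 times in the reference, so that reads there could not be assigned to 1 copy. Of these 3, the site at chrXII:490378-490405 has cytosine before both bonds, and the others have it before the Watson bond only. The former held 12 Watson and 254 Crick hits, and 0 and 124, in pdr1, and 1 and 111, and 0 and 199, in pdr1sae2. At the one-sided site between GPI18, a gene of membrane anchor synthesis, and RCR1, cytosine precedes the Crick bond only.

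At the site between GPI18 and RCR1, pdr1 with VP16 held 8 Watson and 158 Crick hits in replicate 1 and 5 and 154 in replicate 2. In pdr1sae2 it held 0 and 60 in replicate 1 and 5 and 151 in replicate 2. The hits lay on the strand with the cytosine in all 4 libraries. Untreated pdr1 gave 21 Watson and 6 Crick hits in replicate 1, so the same site was not Crick-sided there without the drug.

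At the even site between BET4, a prenyltransferase gene, and MAD2, a spindle checkpoint gene, the Watson share was 56.6% and 42.5% in pdr1 and 67.6% and 35.2% in pdr1sae2. The replicate 1 libraries were the higher ones in both strains. A wider example was the site between ASP1, an asparaginase gene, and MRPL35, a mitochondrial ribosome gene. Its Watson share was 70.6% and 62.3% in pdr1, 89.5% and 50.4% in pdr1sae2 and 90.9% and 60.3% in pdr1mre11. In each of the 3 strains the replicate 1 library was the more Watson-sided, and its fitted difference between strains was 0.31 (SE 1.02, log2 of the strand ratio).

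The likeness of libraries at single sites was compared by strain and by replicate number. Over the 1000 reference sites, which share libraries and base composition and are not replicates, Pearson's r of log2(thinned hits + 1) was 0.805 between the strains in replicate 1 and 0.819 between the strains in replicate 2. Between replicates of a strain it was 0.612 in pdr1 and 0.570 in pdr1sae2. Pairs that shared neither gave 0.578 and 0.597. The SD of the log2 ratio was 0.455 and 0.484 for libraries of the same number, and 0.681 and 0.701 for libraries of the same strain. A library was thus more like the library of the other strain with its own number than the other library of its strain.

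The same order held over 10000 reference sites, with r of 0.690 and 0.724 for the same number and 0.594 and 0.542 for the same strain. It held for the Watson share of the 1000 sites, with 0.868 and 0.901 against 0.779 and 0.698. Thinned hits at a site, as a share of those at all 1000 reference sites, did not overlap between the strains at 221 of 1000 reference sites (22.1%), of which 95 were higher and 126 lower in pdr1sae2. This share is below the 0.333 of libraries arranged without regard to strain. Libraries of replicate 1 did not overlap those of replicate 2 at 553 sites (55.3%). Whether the number marks a shared day, preparation or sequencing run is not given in the sources used here.

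**Figure D4:**
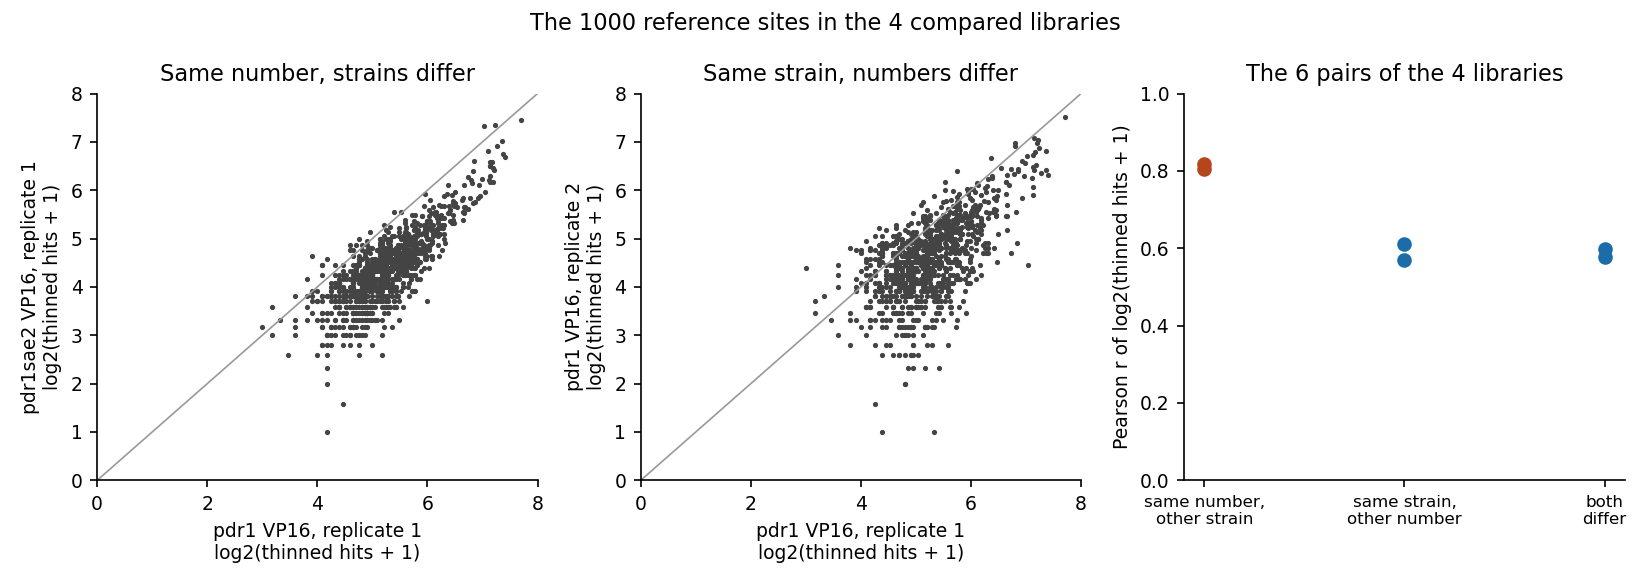
Thinned hits at 1000 reference sites on a log2(hits + 1) scale, for pdr1 replicate 1 against pdr1sae2 replicate 1 and against pdr1 replicate 2, with the line of equality, and Pearson's r for the 6 pairs of libraries. Pairs of the same number give r of 0.805 and 0.819, and pairs of the same strain 0.612 and 0.570.

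The bases around the dyad were compared in the same way, from 15 bases before to 15 after it on the strand of the hit. Of 120 base frequencies over all hits, the strains did not overlap in 6 (5%), and the replicate numbers did not overlap in 30 (25%). Both shares are below the 0.333 of libraries arranged without regard to strain. Most frequencies instead set pdr1 replicate 1 and pdr1sae2 replicate 2 apart from the other libraries, as for cytosine at −3. Among the 6 in which the strains did not overlap, the largest difference was in cytosine at the hit nucleotide itself, position −2. It was 20.5% and 21.4% in pdr1 and 22.5% and 23.4% in pdr1sae2. The untreated libraries gave 20.0% to 22.5% there, a range wider than this difference. Larger differences of means, such as −5.32 percentage points for cytosine at −3 and −3.09 for guanine at −2, came with strains that overlapped. Guanine at +3, the partner of the preferred cytosine, was 38.2% and 31.8% in pdr1 and 28.3% and 36.9% in pdr1sae2, in the order of the cytosine share.

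Guanine at the hit nucleotide separated the numbers most. It made up 30.6% of hits in pdr1 replicate 1 and 24.3% in pdr1sae2 replicate 1, and 20.4% and 20.6% in the replicate 2 libraries. In pdr1mre11 with VP16 it was 36.1% in replicate 1 and 25.7% in replicate 2, so the replicate 1 library was the higher one in all 3 strains. The untreated pdr1 and pdr1sae2 libraries gave 17.7% to 18.9%, with no such order. Among hits that follow a cytosine, guanine at −2 was 25.7% and 17.1% in pdr1 and 24.6% and 16.7% in pdr1sae2. The libraries of a number lay close together in these hits, and the replicates of a strain lay far apart. Of their 116 base frequencies the strains did not overlap in 8 (6.9%), with differences of at most 0.430 percentage points, and the numbers did not overlap in 53 (45.7%).

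**Figure D5:**
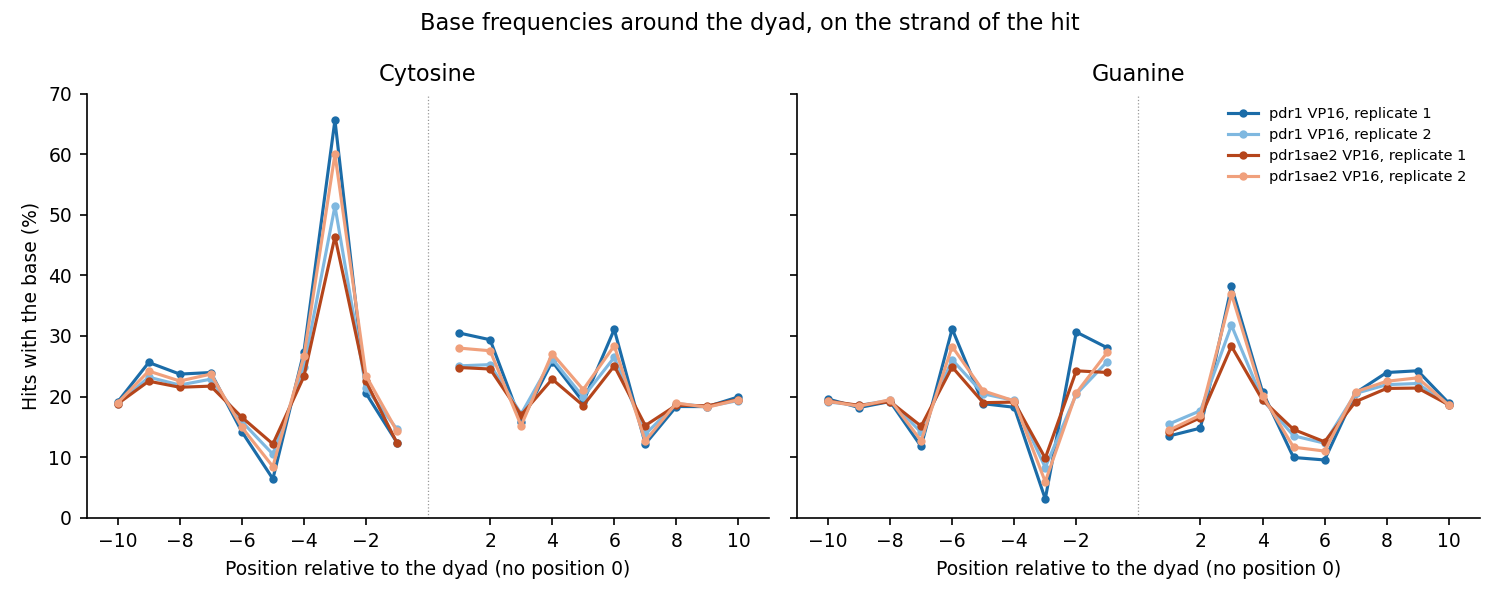
Percent of hits with cytosine or guanine at each position from −10 to +10 around the dyad, on the strand of the hit, for the 4 VP16 libraries. Cytosine at −3 is 65.6% and 51.4% in pdr1 and 46.4% and 60.0% in pdr1sae2, and guanine at −2 is 30.6% and 20.4% against 24.3% and 20.6%.

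The spike-in of human DNA gave the amount of signal, as the nuclear fraction of all hits, unthinned, times the deposited factor of each group (2.19 for pdr1 and 3.63 for pdr1sae2 with VP16). Both replicates of a group share 1 factor, so the spread between them holds no error of the calibration and no test was made. The calibrated signal of hits with cytosine before the bond was 1.36 and 1.05 in pdr1 and 1.61 and 2.06 in pdr1sae2, a ratio of means of 1.52 (1.18 in replicate 1 and 1.97 in replicate 2). Hits with another base there gave 0.716 and 0.989 in pdr1 and 1.86 and 1.37 in pdr1sae2, a ratio of 1.89 (2.59 and 1.39). Untreated libraries gave 0.265 to 0.314 for cytosine and 0.943 to 1.08 for the other bases. The ratio for all nuclear hits was 1.67.

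The hits with another base than cytosine before the bond were at a mean of 0.853 in pdr1 with VP16, below the 0.953 of untreated pdr1. Only pdr1 replicate 1 was lower, at 0.716, while replicate 2, at 0.989, lay above the untreated 0.962 and 0.943. In pdr1sae2 the mean was 1.61 with VP16, above the 1.07 of untreated pdr1sae2. By region, the ratio of pdr1sae2 to pdr1 under VP16 was 1.76 in reading frames, 1.55 in divergent, 1.54 in tandem and 1.65 in convergent regions. With the mean of the untreated libraries of each strain subtracted, these ratios were 3.34, 1.85, 1.84 and 2.26, and that for all nuclear hits was 2.49. For hits with cytosine before the bond the subtracted ratio was 1.63. For hits with another base the subtraction left −0.100 in pdr1 and 0.545 in pdr1sae2, so no ratio can be read there. Whether the untreated level stands for the background under VP16 was not tested. In the 1000 reference sites the ratio without subtraction was 1.34, with 0.917 in replicate 1 and 2.01 in replicate 2. The calibrated signal was higher in pdr1sae2 in both replicates for every one of these region classes, but not for the reference sites. Each group has 1 factor for all classes and both replicates, so these ratios are not independent of each other.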

How the data were processed

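CC-seq maps of 12 budding yeast libraries were used, of which 4 form the comparison. The deposited maps are raw counts, the whole number of hits at each base of each strand. To make them, the authors mapped read pairs by Bowtie2 (version not given in the sources used here) on their own build, Cer3H4L2, kept read pairs of mapping quality 0 and removed rDNA, telomeres, retrotransposons and their long terminal repeats. They also deposited a spike-in ratio for each group, 1 value for both replicates. Pooled maps were not used. Reads carried no molecular identifiers, so intervals cover counting error only. Library totals are those of the report.

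Names and sequence came from R64. Map ends lay within its chromosomes except for III, which was left out wherever annotation or sequence was used. Runs of at least 100 bases without a hit in any library (537901 bp, 4.45% of the nuclear genome) were masked. Sites joined a Watson position with the Crick position 3 bp further. Genome-wide fits used edgeR 4.0.16 (quasi-likelihood, TMM factors, filterByExpr, Benjamini-Hochberg over all features) in R 4.3.3 on the 6 VP16 libraries, with log2 differences of pdr1sae2 minus pdr1. Strand fits needed 10 hits in each compared library. DESeq2 1.42.0 was an alternative. Library measures used Python 3.11.15 with numpy 2.4.6, pandas 2.3.3 and scipy 1.17.1 after random thinning, and exact permutation tests. Scripts were tested on simulated data.

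Named sites were those called, the 8 strongest with a unique 40 bp in the reference, off chromosome III (5 stronger sites, repeated in the reference, were passed over), and the 4 most one-sided and 4 most even in pdr1mre11 with at least 50 hits in each compared library. The 3 sites at SAE2 were named outside this rule, after their values were seen. Named genes were SAE2, PDR1, the neighbours of SAE2 and the list of 19 (1 further gene of the list is not reported here), and named tiles were those called. Members (taken by label), lists and the reference sites were chosen with earlier results of these data known. Replicate numbers were taken to pair the libraries, because deviations from group means of same-numbered libraries correlated over 19392 sites at 0.381, 0.367 and 0.376 for the 3 pairs of strains, and over 23241 tiles at 0.155, 0.269 and 0.189. With 2 libraries a group, these values are the same for either number, and the pairing comes from the data, not from the labels. P-values measure the spread between these samples. Alternatives were other library sizes, filters, thinning seeds, tile widths and sample sets, the block, and leaving out each library.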

Additional observations from a re-analysis of the deposited data

Results flagged for a closer look

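Hits on a molecule of up to 6318 bp, listed after the mitochondrial genome and not named in the sources used here, lay outside every comparison above. They were above the untreated level with VP16 in both strains. Their mean calibrated signal in pdr1 was 0.0351 with VP16 (0.0396 and 0.0305 in the replicates), against 0.0277 and 0.0183 without it. In pdr1sae2 it was 0.0560 with VP16 (0.0581 and 0.0538), against 0.0282 and 0.0218 without it. The ratio of pdr1sae2 to pdr1 under VP16 was 1.60, with no test, and its part in the nuclear results was not tested.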

How the results depend on the processing

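Of 42 comparisons with an alternative that left out no library, 36 stayed and 6 moved. To stay, a library measure had to keep the sign of its difference, and a count of calls had to stay within 1.5 times. Tile calls went from 1 to 0 with DESeq2, 2 with the replicate block, 2 with the 4 compared libraries and the block (chosen after seeing the data) and 6 in 200 bp tiles. Site calls went from 0 to 2 with the 4 compared libraries and the block, and the ratio of calibrated signal from 1.67 to 2.49 with untreated signal subtracted. Some differences of library measures moved by over 1.5 times while keeping their sign. With each position counted once, they were −0.059 for promoter and −0.11 for upstream density (−0.18 and −0.24 as reported). Same-strand share differed by 0.23 points without thinning and 0.18 with a second thinning seed (0.49 as reported). Unequal strands differed by −2.65 points without thinning (−1.69 as reported). Site concentration differed by −0.12 and −2.21 points with 100 and 10000 reference sites, against −0.62 with 1000. The block changed no other call of sites or tiles. Strand calls were not run with it. The library term of that fit takes up the hits of a library, not a strand ratio that goes with the replicate number. Without 1 library, tile calls ran from 0 to 15, and site and strand calls stayed at 0. The strain difference ran from −0.37 to 0.0036 (log2) for promoter density, from −0.45 to −0.03 (log2) for upstream density, from −12.4 to 1.76 percentage points for cytosine share, from −1.31 to 0.067 points for site concentration, from −0.13 to 1.12 points for same-strand share and from −2.96 to −0.42 points for unequal strands. It changed sign in 5 of 24 such cases: without pdr1 replicate 1 for promoter density (0.0036), cytosine share (1.76) and site concentration (0.067), and without pdr1sae2 replicate 1 for cytosine share (1.47) and same-strand share (−0.13). Shallow sites limit what single-site tests can show.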
